A study of Mus musculus with 12 samples.

Results

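The genes described here are the mouse genes of the troponin complex of striated muscle, which encode troponin T (Tnnt1, Tnnt2, Tnnt3), troponin I (Tnni1, Tnni2, Tnni3) and troponin C (Tnnc1, Tnnc2), and the sarcomeric alpha-actin genes Actc1 and Acta1. These 10 genes, out of 24421 in the deposited tables, were chosen by symbol because Tnnt3 was strongly raised in the tumours, so their differences between control tumours and cortex are given as a description, with no p-value. The 12 libraries were bulk polyA RNA sequencing of mouse tissue, 3 from each of 4 groups. ETV5 tumours were ependymomas of genotype ZFTA-RELA that also overexpressed human ETV5, a transcription factor of the ETS family. NPY tumours were ependymomas of the same genotype that also overexpressed human NPY, which encodes the neuropeptide Y precursor. Control tumours carried ZFTA-RELA alone, a fusion that acts as a transcription regulator in ependymoma, and the cortex samples were wild-type and not from a tumour. All 9 tumours therefore share the fusion. The labels used here give no age, strain or sex, do not say how the genes were introduced, and do not say whether replicates were separate animals. P-values thus measure the spread between these samples, which may be technical.

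In striated muscle, actin filaments are wound with tropomyosin, and the troponin complex sits on tropomyosin as a calcium switch. Troponin T anchors the complex to tropomyosin, troponin I holds the filament in the off state, and troponin C binds calcium and lifts that inhibition. Each subunit has paralogs used by different muscles: Tnnt1, Tnni1 and Tnnc1 in slow skeletal fibres, Tnnt3, Tnni2 and Tnnc2 in fast skeletal fibres, and Tnnt2, Tnni3 and again Tnnc1 in heart. Acta1 is the main alpha-actin of adult skeletal muscle and Actc1 that of adult heart. Brain and ependymoma are not striated muscle, and neurons and glia contain the cytoplasmic actins Actb and Actg1 in bulk.

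Depth was 6691146 to 11291057 reads in ETV5 tumours, 8214523 to 10481943 in NPY tumours, 6266613 to 9443466 in control tumours and 5962376 to 7444467 in cortex. Levels are CPM, reads recovered from the deposited values and scaled to the total of their library. A group of 3 libraries with 0 reads allows a level of up to 3 reads over the group, which is 0.117 CPM for ETV5 tumours, 0.111 for NPY tumours, 0.121 for control tumours and 0.146 for cortex. This floor and the exact (Clopper-Pearson) 95% intervals below cover counting error only. In bulk tissue, fewer cells of a type and less RNA per cell cannot be told apart.

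The members fell into 3 patterns. Tnnt3 and, at a lower and far more variable level, Tnni3 were higher in control tumours than in cortex. Tnnc1, Acta1, Tnnt2 and Tnni1 were lower in control tumours than in cortex. The remaining members were low: Tnnt1 was at a like level in both, and Tnnc2 and Actc1 had few reads throughout. Tnni2, also low and not tested in control tumours against cortex, lay above cortex in each tumour library. It had 53 reads over the control tumours and 7 over cortex. Among the tumour groups no member passed the test in any of the 3 comparisons.

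**Figure D1:**
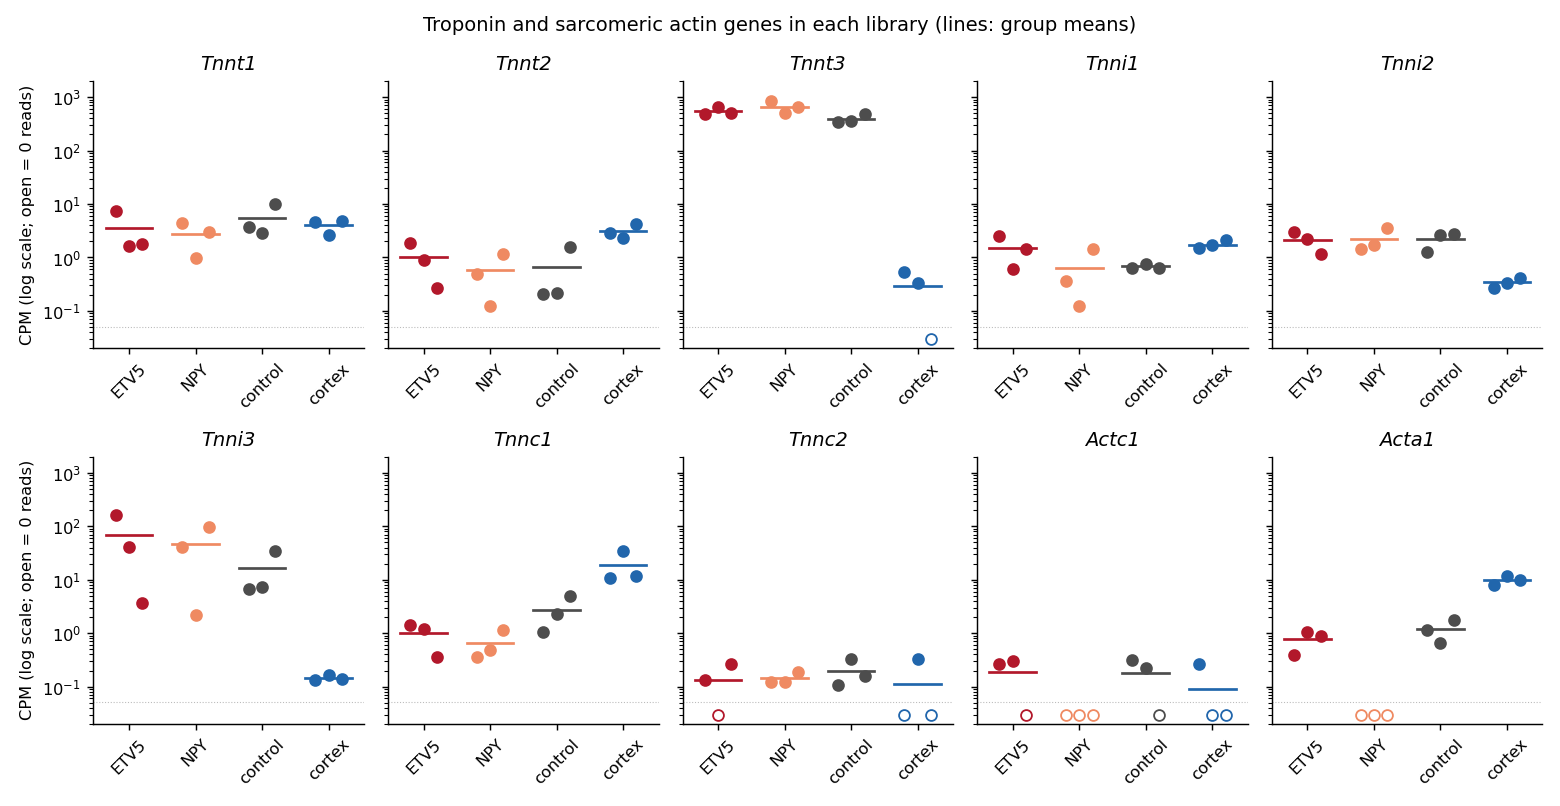
Level of each of the 10 genes in each library, in CPM on a log axis, with ETV5, NPY and control tumours and cortex from left to right; lines mark group means and open symbols a library with 0 reads. Tnnt3 stands at 343 to 854 CPM in all 9 tumours and at or under 0.537 CPM in cortex, Tnni3 ranges from 2.19 to 162 CPM over the tumours, and Acta1 has no read in the NPY tumours.

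Tnnt3 (fast skeletal troponin T, ENSMUSG00000061723.18, protein coding, mm10 chr7:142498836-142516009, plus strand) had 485, 655 and 515 CPM in ETV5 tumours, 854, 497 and 646 CPM in NPY tumours, 343, 358 and 474 CPM in control tumours, and 0.537, 0.335 and 0 CPM in cortex, where only 6 reads were counted in all. Every tumour library lay far above every cortex library, and both groups with an added gene lay wholly above the controls. The means were 551 ± 90.8 CPM in ETV5 tumours, 666 ± 179 in NPY tumours, 392 ± 71.7 in control tumours and 0.291 ± 0.271 in cortex (SD, n = 3 each). Pooled over libraries, the ratio to cortex was 1861 in ETV5 tumours, 2279 in NPY tumours and 1310 in control tumours. On the log2(value + 1) scale of the test, which understates the change of a gene this low in cortex, control tumours were higher than cortex by 10.03 (SE 0.55).

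The GENCODE M21 annotation lists 23 coding transcripts of Tnnt3, a gene known for extensive alternative splicing, and gene totals do not tell these isoforms apart.

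Reads of paralogs can be told apart only where their sequences differ. Over the aligned coding sequence, Tnnt3 is 70.4% identical to Tnnt1, with a longest identical run of 16 bases, and 70.5% identical to Tnnt2, with a longest run of 17. The most alike stretch of 60 bases between Tnnt3 and Tnnt1, both on chromosome 7, is shown because it is where reads of these genes would be hardest to separate. It lies at coding positions 427 to 486 of Tnnt3 and 406 to 465 of Tnnt1, counted from the A of the start codon in the mm10 reference, and capitals mark its 11 mismatches.
Tnnt3: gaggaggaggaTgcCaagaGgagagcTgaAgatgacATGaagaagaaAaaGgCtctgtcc
Tnnt1: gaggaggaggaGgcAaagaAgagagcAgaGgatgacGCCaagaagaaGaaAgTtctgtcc

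Tnnt1 (slow skeletal troponin T, chr7:4504570-4516382, minus strand) had 7.48, 1.64 and 1.77 CPM in ETV5 tumours, 4.37, 0.974 and 3.05 in NPY tumours, 3.71, 2.86 and 10.1 in control tumours, and 4.70, 2.68 and 4.73 in cortex. All 4 groups overlapped. Tnnt2 (cardiac troponin T, chr1:135836354-135852260, plus strand) had 1.84, 0.897 and 0.266 CPM in ETV5 tumours, 0.486, 0.122 and 1.14 in NPY tumours, 0.212, 0.220 and 1.6 in control tumours, and 2.82, 2.35 and 4.32 in cortex. Each tumour library was below each cortex library for Tnnt2, and the tumour groups overlapped. The log2 difference between control tumours and cortex was 0.11 for Tnnt1 and -2.59 for Tnnt2.

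Levels of different genes are compared only per kilobase of annotated exon. On that scale troponin T mRNA in the tumours was almost wholly Tnnt3, at 98.8 to 99.8% of the 3 troponin T genes in ETV5 tumours, 99.6 to 99.9% in NPY tumours and 98.4 to 99.4% in control tumours. In cortex Tnnt3 was 0 to 12.2% of it, and Tnnt1 made up 70.3 to 79.4% and Tnnt2 12.8 to 20.6%. The summed troponin T level was 310 to 414 CPM per kb in ETV5 tumours, 314 to 541 in NPY tumours, 218 to 304 in control tumours and 1.73 to 2.84 in cortex.

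Tnni3 (cardiac troponin I, ENSMUSG00000035458.15, chr7:4518305-4524229, minus strand) had 162, 41.7 and 3.72 CPM in ETV5 tumours, 41.4, 2.19 and 96.5 in NPY tumours, 6.78, 7.15 and 34.9 in control tumours, and 0.134, 0.168 and 0.139 in cortex, 1 read in each cortex library. Each tumour was above each cortex library, but the tumour groups overlapped widely. Pooled ratios to cortex were 417 in ETV5 tumours (95% interval 142 to 2022), 349 in NPY tumours (119 to 1695) and 96.3 in control tumours (32.7 to 469). Control tumours were higher than cortex by 5.33 (SE 0.61) on the log2(value + 1) scale. Over the 9 tumours the highest level was 73.8 times the lowest and the coefficient of variation was 121%, against 2.49 times and 29.8% for Tnnt3. High and low Tnni3 libraries occurred in each tumour group.

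Tnni2 (fast skeletal troponin I, chr7:142441808-142444410, plus strand) had 3.02, 2.24 and 1.15 CPM in ETV5 tumours, 1.46, 1.7 and 3.63 in NPY tumours, 1.27, 2.64 and 2.71 in control tumours, and 0.269, 0.335 and 0.418 in cortex. It was above cortex in each tumour library but did not pass the filter on low reads in control tumours against cortex. Tnni1 (slow skeletal troponin I, chr1:135779434-135810989, plus strand) had 2.49, 0.598 and 1.42 CPM in ETV5 tumours, 0.364, 0.122 and 1.43 in NPY tumours, 0.635, 0.771 and 0.638 in control tumours, and 1.48, 1.68 and 2.09 in cortex. The control tumours and the NPY tumours lay below cortex for Tnni1, and the ETV5 tumours overlapped it. Its log2 difference between control tumours and cortex was -1.36.

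Per kilobase, Tnni3 made up 60.8 to 96.7% of troponin I mRNA in ETV5 tumours, 47.5 to 94.9% in NPY tumours and 63.7 to 89.5% in control tumours, against 7.28 to 10.5% in cortex, where Tnni1 made up 60.4 to 62.7%. The summed troponin I level was 2.97 to 81.1 CPM per kb in ETV5 tumours, 2.23 to 49.6 in NPY tumours, 4.31 to 18.9 in control tumours and 0.655 to 0.926 in cortex. Troponin T mRNA thus exceeded troponin I mRNA in each library, by a ratio of 3.82 to 110 in ETV5 tumours, 8.27 to 141 in NPY tumours, 16.1 to 50.7 in control tumours and 2.25 to 4.33 in cortex.

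The troponin I genes differ to a like extent: Tnni3 is 68.5% identical to Tnni1 and 70.4% to Tnni2 in coding sequence, with longest identical runs of 21 and 14 bases. The most alike 60 bases of Tnni3 and Tnni2, both on chromosome 7, are shown for the same reason as above, at coding positions 492 to 551 of Tnni3 and 393 to 452 of Tnni2, with the 9 mismatches in capitals.
Tnni3: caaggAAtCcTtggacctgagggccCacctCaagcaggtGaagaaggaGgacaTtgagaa
Tnni2: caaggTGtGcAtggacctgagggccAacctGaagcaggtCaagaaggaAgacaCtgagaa

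Tnnc1 (slow skeletal and cardiac troponin C, chr14:31208312-31211729, plus strand) had 1.44, 1.20 and 0.354 CPM in ETV5 tumours, 0.364, 0.487 and 1.14 in NPY tumours, 1.06, 2.31 and 4.95 in control tumours, and 10.9, 33.9 and 12 in cortex. Every tumour library was below every cortex library, and control tumours were lower than cortex by a log2 difference of -2.92. Tnnc2 (fast skeletal troponin C, chr2:164777161-164779967, minus strand) had 4 reads over the ETV5 tumours, 4 over the NPY tumours, 5 over the control tumours and 2 over cortex. On the opposite strand Ube2c, a ubiquitin-conjugating enzyme of mitosis, shares 592 exonic bases with Tnnc2, which is 74% of the exons of Tnnc2. Ube2c averaged 36.1 CPM in ETV5 tumours, 51.3 in NPY tumours, 36.4 in control tumours and 0.869 in cortex. The strand setting of the counting is not given in the sources used here, so the few Tnnc2 reads are uncertain.

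Tnnc1, the only troponin C gene above a few reads, was thus highest where the other subunits were low. Summed troponin C was 0.672 to 1.55 CPM per kb in ETV5 tumours, 0.502 to 1.34 in NPY tumours, 1.15 to 4.95 in control tumours and 10.5 to 33.0 in cortex. The ratio of troponin T to troponin C mRNA was 200 to 485 in ETV5 tumours, 306 to 1079 in NPY tumours, 61.4 to 190 in control tumours and 0.0526 to 0.271 in cortex. In the tumours it rests on few troponin C reads, such as 3 of Tnnc1 and 1 of Tnnc2 in NPY replicate 1. Its differences between tumour libraries and groups are therefore uncertain. The raised troponin T was not matched by troponin C in any tumour library.

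**Figure D2:**
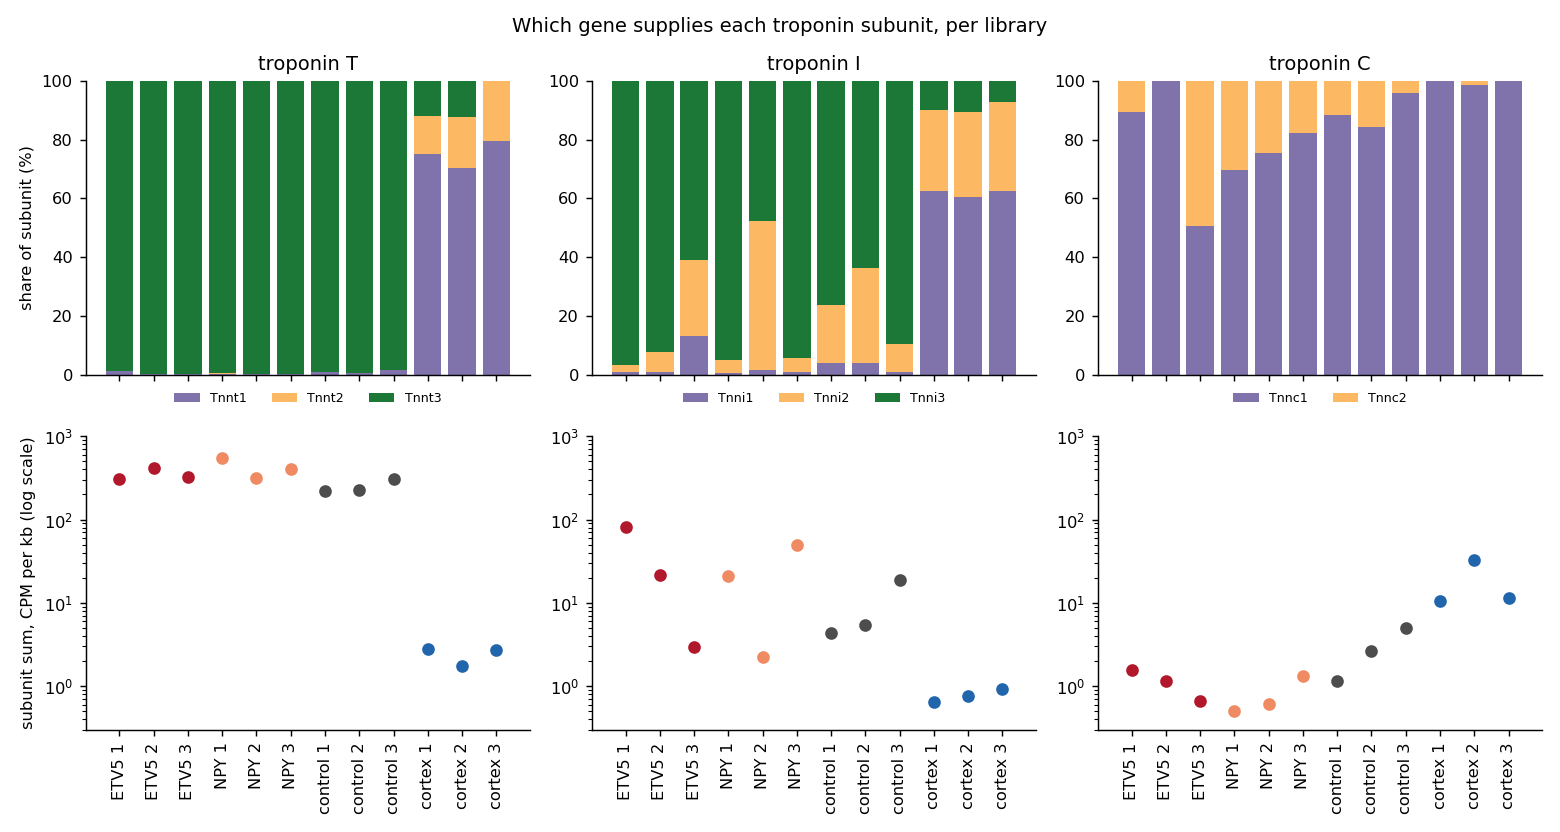
Top, share in percent of each troponin subunit's mRNA that came from each of its genes, per library; bottom, summed level of each subunit in CPM per kb of exon, on a log axis, in ETV5, NPY and control tumours and cortex. Tnnt3 makes up at least 98.4% of troponin T in each tumour and at most 12.2% in cortex, and troponin C is lowest in the tumours and 10.5 to 33.0 CPM per kb in cortex.

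In order of level per kilobase, control tumours had Tnnt3 first at 247.5 ± 45.3 CPM per kb and Tnni3 second at 7.90 ± 7.83 (SD, n = 3). Tnnc1 at 2.66 ± 1.91 and Tnnt1 at 2.51 ± 1.78 came next. The spreads of these 3 genes over libraries overlapped, but Tnni3 was above the other genes within each control library. In replicates 1, 2 and 3 it had 3.29, 3.47 and 16.9 CPM per kb. Tnnc1 had 1.02, 2.22 and 4.75, and Tnnt1 had 1.68, 1.30 and 4.56. ETV5 tumours had means of 348 for Tnnt3 and 33.5 for Tnni3, and NPY tumours had 420.5 for Tnnt3 and 22.6 for Tnni3. In cortex the order was Tnnc1 at 18.2 ± 12.5, Acta1 at 6.45 ± 1.26 and Tnnt1 at 1.83 ± 0.533. Taking the longest transcript in place of all exons as the length left Tnnt3 first and Tnni3 second in each tumour group.

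Acta1 (skeletal alpha-actin, chr8:123891769-123894751, minus strand) had 0.394, 1.05 and 0.886 CPM in ETV5 tumours, 0, 0 and 0 in NPY tumours, 1.16, 0.660 and 1.76 in control tumours, and 8.06, 11.9 and 9.74 in cortex. These are 20 reads over the ETV5 tumours, 0 over the NPY tumours, 28 over the control tumours and 201 over cortex. Each tumour was below each cortex library, and NPY tumours were at least 10.1-fold lower than control tumours and at least 87.6-fold lower than cortex, against the floor of 3 reads over the group. Actc1 (cardiac alpha-actin, chr2:114047282-114053548, minus strand) had 4 reads over the ETV5 tumours, 0 over the NPY tumours, 5 over the control tumours and 2 over cortex. Control tumours were lower than cortex by a log2 difference of -3.16 for Acta1, and Actc1 was not tested.

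Reads of the alpha-actins are less certain than those of the troponins. Coding sequences of Acta1 and Actc1 are 86.2% identical, with a longest identical run of 29 bases, and Acta1 and the smooth muscle gene Acta2 are 85.4% identical.

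Both sarcomeric actin promoters hold a CArG box, the site of serum response factor (SRF), within the 250 bases before the start that RefSeq gives. The motif was found on either strand in 1.47% of 32851 RefSeq promoter entries of this length. The pair is printed because Acta1 and Actc1 are the members with 0 reads in the NPY tumours. Actc1 had at most 5 reads in any other group, so nothing is read from its 0. The sequences are from RefSeq (GRCm38.p6), chr8:123894776-123895025 for Acta1 and chr2:114052876-114053125 for Actc1, minus strand, with the box in capitals. Its first base is at -73 from the RefSeq start in Acta1 and at -47 in Actc1. These starts differ from the ends of the GENCODE gene intervals given above. The Actc1 stretch lies inside its gene interval, and the Acta1 stretch lies a short way upstream of its own.
Acta1: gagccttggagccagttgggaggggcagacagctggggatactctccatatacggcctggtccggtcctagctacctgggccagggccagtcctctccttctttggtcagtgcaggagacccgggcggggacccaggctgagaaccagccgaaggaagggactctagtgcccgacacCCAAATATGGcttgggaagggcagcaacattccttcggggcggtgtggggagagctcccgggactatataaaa
Actc1: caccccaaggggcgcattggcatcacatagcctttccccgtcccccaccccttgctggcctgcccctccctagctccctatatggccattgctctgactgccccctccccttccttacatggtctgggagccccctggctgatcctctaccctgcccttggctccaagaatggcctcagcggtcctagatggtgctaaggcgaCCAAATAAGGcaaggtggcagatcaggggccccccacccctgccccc

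Srf itself had 94.0, 93.1 and 119 CPM in ETV5 tumours, 80.5, 156 and 79.1 in NPY tumours, 101, 84.9 and 60.2 in control tumours, and 64.2, 59.2 and 68.5 in cortex. ETV5 and NPY tumours lay wholly above cortex, and control tumours overlapped it (log2 difference 0.16, not called). A motif match is a description of these letters only. Of the 10 members, 8 had a RefSeq promoter entry, and Tnnt3 and Tnni2 did not.

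In control tumours against cortex, 7 members passed the filter on low reads and stood in the fit over all genes, 2 past its threshold on the higher side (Tnnt3, Tnni3), 4 on the lower (Tnnt2, Tnni1, Tnnc1, Acta1) and 1 on neither (Tnnt1). Over all 14621 genes tested there, 72% were called, 35.7% higher and 36.2% lower, and 43.8% had control tumours wholly above cortex and 33.6% wholly below. The members had been chosen on this contrast, so their count is a description and nothing is read from it.

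Markers of cortical neurons were set beside the members that were lower in tumours than in cortex. All 8 such markers fell in control tumours (median log2 difference -3.91, against -0.0032 over all genes tested), with summed levels of 47.9 to 598 CPM in ETV5 tumours, 41.1 to 52.7 in NPY tumours, 413 to 1000 in control tumours and 7303 to 8548 in cortex. As a percentage of the cortex mean, the median marker was 0.629, 7.76 and 2.31 in ETV5 tumours, 0.467, 0.294 and 0.509 in NPY tumours, and 5.37, 5.49 and 13.3 in control tumours. Acta1 on that scale was 3.97, 10.6 and 8.94 in ETV5 tumours, 0, 0 and 0 in NPY tumours, and 11.8, 6.67 and 17.7 in control tumours. Tnnc1 was 7.63, 6.32 and 1.87 in ETV5 tumours, 1.93, 2.57 and 6.05 in NPY tumours, and 5.60, 12.2 and 26.2 in control tumours. Acta1, Tnnc1 and the neuron markers were highest in control replicate 3 among the tumours. Acta1 and the median marker were both lowest in the NPY tumours and next lowest in ETV5 replicate 1. Elsewhere their order differed in part. ETV5 replicate 3 had 2.31 for the marker and 8.94 for Acta1, and control replicate 2 had 5.49 and 6.67. Tnnc1 departed from the order of the markers, with its lowest value in ETV5 replicate 3. In ETV5 replicate 1 the median marker was 0.629 percent, against 3.97 for Acta1 and 7.63 for Tnnc1. In NPY replicate 3 it was 0.509, against 0 for Acta1 and 6.05 for Tnnc1. Tnnt2 and Tnni1 also departed from the markers. Tnnt2 was 58.1, 28.4 and 8.40 percent of the cortex mean in ETV5 tumours, 15.4, 3.85 and 36.2 in NPY tumours, and 6.70, 6.96 and 50.5 in control tumours. Tnni1 was 143, 34.2 and 81.1 percent in ETV5 tumours, 20.8, 6.97 and 81.9 in NPY tumours, and 36.4, 44.1 and 36.5 in control tumours. The part of remaining cortex in these values was not tested.

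**Figure D3:**
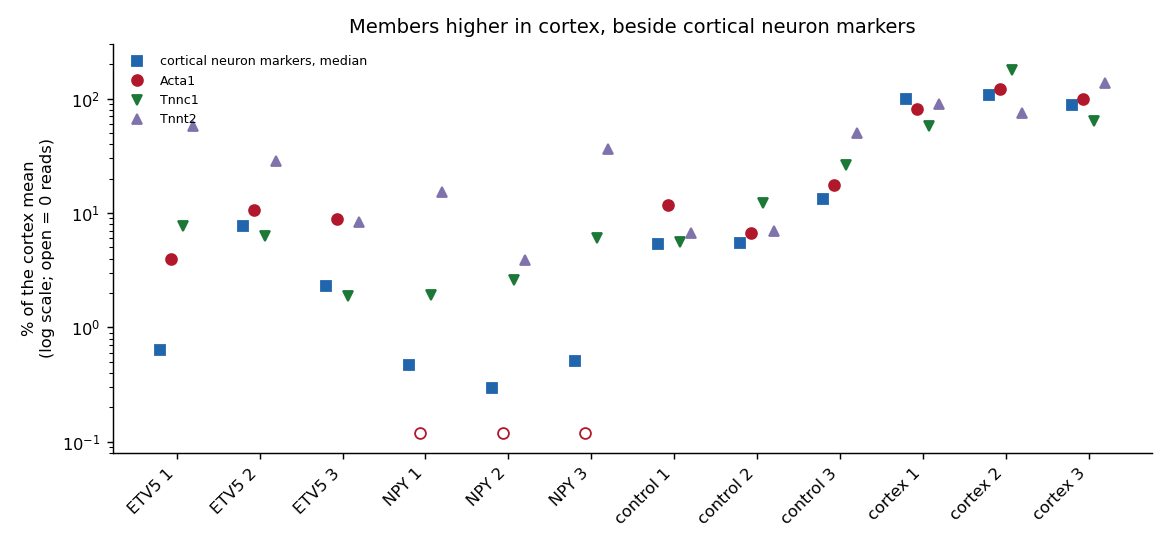
Acta1, Tnnc1, Tnnt2 and the median of 8 cortical neuron markers in each library, as percent of the mean of the cortex libraries on a log axis, with ETV5, NPY and control tumours and cortex from left to right and open symbols for 0 reads. The neuron markers stand at 0.294 to 0.509 percent in NPY tumours and 5.37 to 13.3 percent in control tumours, and Acta1 at 0 in NPY tumours and 6.67 to 17.7 percent in control tumours.

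The groups with an added gene were compared with control tumours to ask whether ETV5 or NPY moved these genes, and with each other. The ETV5 and NPY comparisons share the same 3 control libraries. For Tnnt3, ETV5 tumours were above control tumours by a log2 difference of 0.48 (SE 0.19), which did not pass (limma adjusted p = 0.732), and NPY tumours by 0.83 (SE 0.23), which did not pass either (limma adjusted p = 0.0871). In both the groups did not overlap. Over all genes tested, ETV5 tumours lay wholly above control tumours for 7.1% and wholly below for 7.08%, and NPY tumours wholly above for 11.1% and wholly below for 18.4%. DESeq2 on the recovered reads called Tnnt3 in NPY tumours against control tumours (adjusted p = 0.0157), and over all alternatives that value ran from 0.0157 to 0.237, with log2 differences of 0.64 to 1.01. For ETV5 against control the log2 difference ran from 0.36 to 0.61 and the adjusted p from 0.386 to 0.996. ETV5 tumours against NPY tumours gave -0.31 (SE 0.23, limma adjusted p = 0.830), with overlapping values.

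The sample descriptions carry code prefixes that differ between the libraries. One prefix marks ETV5 replicates 1 and 2 with all control and cortex libraries, and the other marks ETV5 replicate 3 and all NPY libraries. Within the first prefix, Tnnt3 differed between ETV5 and control tumours by a log2 value of 0.50 (limma adjusted p = 0.698). NPY tumours and control tumours share no prefix, so the prefix and the added gene cannot be told apart in that comparison.

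Of the other members, 4 were tested in ETV5 against control tumours and 3 in NPY against control tumours. Tnni3 differed by 1.28 (SE 1.35, limma adjusted p = 0.841) with ETV5 and 0.88 (SE 1.39, limma adjusted p = 0.753) with NPY. These standard errors are as large as the differences. Tnnt1 differed by -0.74 (SE 0.72, limma adjusted p = 0.831) with ETV5 and -0.89 (SE 0.68, limma adjusted p = 0.481) with NPY. Tnni2 differed by -0.08 (SE 0.52) with ETV5 and 0.08 (SE 0.51) with NPY, and Tnnc1, tested with ETV5 only, by -1.30 (SE 0.72, limma adjusted p = 0.733). In ETV5 against NPY tumours the 5 members tested had log2 differences of -0.31 for Tnnt3, -0.12 for Tnni2, 0.18 for Tnnt1, 0.44 for Tnni3 and 1.29 for Tnni1, with limma adjusted p from 0.828 to 0.975.

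No member was called in any of these 3 comparisons by limma. Over all genes limma called 0% of 14382 in ETV5 against control tumours, where 944 had an unadjusted p under 0.05, edgeR called 0 and DESeq2 76. In NPY against control tumours it called 727 of 14425, which is 5.04%, with 0.728% higher and 4.31% lower. In ETV5 against NPY tumours it called 0% of 14023, with 831 at an unadjusted p under 0.05, 0 by edgeR and 56 by DESeq2, and 7.47% of genes lay wholly higher in ETV5 tumours and 4.98% wholly lower. Zero members of 4 or 5 tested is near each of these shares.

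Acta1 did not pass the filter on low reads among the tumours. With no filter, NPY tumours were below control tumours by a log2 difference of -3.34 (SE 0.45, limma adjusted p = 0.0139), a value that depends on the added 1 since NPY tumours had 0 reads. Leaving out 1 library at a time, an addition made after the values were seen, gave adjusted p from 0.0309 to 0.0689. The call was lost without NPY replicate 1 (adjusted p = 0.0573) and without control replicates 1, 2 or 3 (adjusted p = 0.0603, 0.0689 and 0.0668). In the same comparison 7 of the 8 cortical neuron markers fell, and their part in the Acta1 value was not tested.

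**Figure D4:**
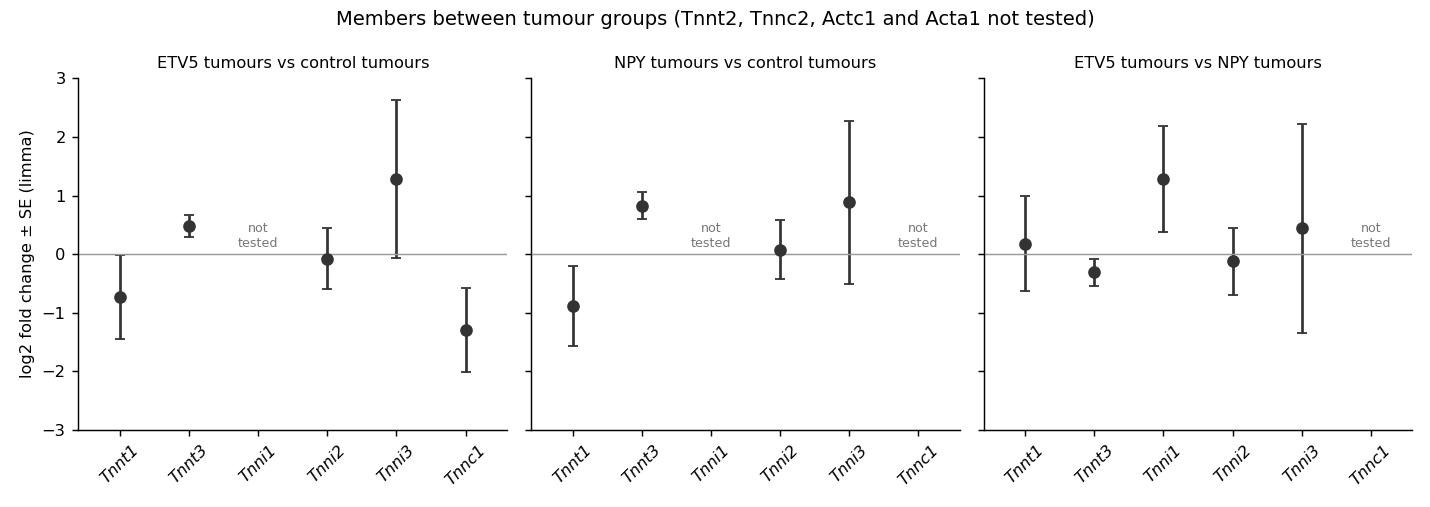
Log2 fold change with its standard error (bars) for the 6 members tested in at least 1 comparison among the tumours, in ETV5 against control, NPY against control and ETV5 against NPY tumours, with members that did not pass the filter on low reads marked as not tested. Tnnt3 has the narrowest bars, at 0.48 for ETV5 against control, 0.83 for NPY against control and -0.31 for ETV5 against NPY, and no point passed the adjusted threshold.

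Markers of muscle tissue were set beside these levels. The 15 skeletal muscle markers summed to 27.2 to 71.6 CPM in ETV5 tumours, 19.4 to 53.7 in NPY tumours, 26.7 to 35.9 in control tumours and 62.3 to 73.1 in cortex. Some of them were at or near 0. The muscle creatine kinase gene Ckm reached at most 0.443 CPM in ETV5 tumours, 1.43 in NPY tumours, 0.638 in control tumours and 0.168 in cortex. The myoglobin gene Mb reached at most 0.149 CPM in ETV5 tumours, 0.121 in NPY tumours, 0.319 in control tumours and 0.696 in cortex. In the separate list of muscle transcription regulators, the determination factor Myf5 had 0 reads in the tumours. Myod1, of that list too, reached at most 0.269 CPM in any library. Jsrp1 and Smpx reached higher levels in the tumours, Smpx in only some of them. Jsrp1, a triad protein gene, reached 30.7 CPM in ETV5 tumours, 22.5 in NPY tumours, 10.7 in control tumours and 2.78 in cortex. Smpx, a small protein of striated muscle, reached 20.3 CPM in ETV5 tumours, 15.7 in NPY tumours, 4.31 in control tumours and 0.134 in cortex. It had 0 reads in ETV5 replicate 3 and NPY replicate 2, and was not tested in control tumours against cortex. The part of muscle cells in the troponin levels was not tested. In control tumours against cortex, 6 skeletal markers were tested. Over all genes tested there 35.7% were called higher and 36.2% lower, to be set beside the list counts here and in the following. Values in parentheses here and in the following are log2 differences of genes that limma called (adjusted p under 0.05). Jsrp1 rose (2.18), and 4 fell, among them the calcium release channel Ryr1 (-4.69) and the muscle glycogen phosphorylase Pygm (-2.53).

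The 11 cardiac muscle markers summed to 23.3 to 268 CPM in ETV5 tumours, 65.9 to 155 in NPY tumours, 13.7 to 92.9 in control tumours and 4.59 to 6.45 in cortex. In the tumours most of that was 1 gene, Gata4, a transcription factor of heart and of several endoderm and gonad tissues. Gata4 had 262, 21.1 and 27.4 CPM in ETV5 tumours, 155, 64.9 and 95.1 in NPY tumours, 12, 91.3 and 52.2 in control tumours, and 0.134, 0 and 0 in cortex. Tbx5, a defining factor of the heart, had 0 reads in all groups, Nkx2-5 had 0 in control tumours and cortex, and the natriuretic peptide gene Nppb had 0 in ETV5 and control tumours. Of the 2 cardiac markers tested in control tumours against cortex, Gata4 rose and the calcium store protein Casq2 fell (-1.88).

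The 11 smooth muscle and pericyte markers summed to 262 to 414 CPM in ETV5 tumours, 286 to 391 in NPY tumours, 449 to 532 in control tumours and 146 to 163 in cortex. Of 10 tested in control tumours against cortex, 6 rose, among them the pericyte receptor gene Pdgfrb (3.28), the actin-binding Tagln (2.55) and Smtn (2.31), and 1 fell, Vtn (-1.18). Vtn, a pericyte marker in brain, was also the only one of them called in NPY against control tumours, where it fell (-2.26, limma adjusted p = 0.0280). The part of these cells in the members' levels was not tested.

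Other genes of the sarcomere went both ways between control tumours and cortex. Of 11 other thin filament genes tested in control tumours against cortex, 3 rose and 2 fell (median log2 difference 0.27). Of the 4 tropomyosins, which troponin T binds in muscle, Tpm1 and Tpm4 rose, and Tpm2 (-0.40, limma adjusted p = 0.192) and Tpm3 (0.60, limma adjusted p = 0.0599) were not called. Tpm4 averaged 245 CPM in ETV5 tumours, 280 in NPY tumours, 286 in control tumours and 28.4 in cortex (3.16). Tpm1 averaged 402 CPM in ETV5 tumours, 562 in NPY tumours, 360 in control tumours and 169 in cortex (0.92). Tmod3, a tropomodulin that caps actin filaments outside muscle, rose (1.15), and the brain tropomodulin Tmod2 (-2.52) and the nebulette gene Nebl (-1.68) fell. Of the other actins, Actb (0.84) and Acta2 (1.68) rose, and of 3 tested none fell.

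Of 22 sarcomeric thick filament genes listed, 13 were tested. Of these, 11 fell and 1 rose, with a median log2 difference of -2.52, against 36.2% lower and 35.7% higher over all genes tested. Some passed the filter on low reads through cortex alone, such as Myh3 with 2 reads over the control tumours and 86 over cortex. Such genes could only fall, so the count is a description. The embryonic myosin Myh3 (-4.51), the fast light chain Myl1 (-4.08) and the slow and cardiac myosin Myh7 (-3.84) fell, and Myl3, the ventricular and slow light chain, rose. Myl3 had 6.69, 1.79 and 9.39 CPM in ETV5 tumours, 6.07, 57.1 and 8.11 in NPY tumours, 21.6, 6.05 and 2.07 in control tumours, and 0 reads in cortex, so that no library of a tumour was without it. The Z-disc and titin list had 3 rises, Flnc (3.78), Ttn (3.47) and Des (2.28), and 3 falls, Tcap (-3.76), Actn2 (-3.23) and Ldb3 (-2.37), among 9 tested. Of 12 muscle transcription regulators tested, 5 rose, among them Tead4 (3.24) and Tead1 (1.71), and 5 fell, among them Mef2c (-2.92), Mkl2 (-2.34) and Mef2d (-1.26). In ETV5 against control tumours limma called 0 of all 14382 genes tested, and so none in these lists. In NPY against control tumours the actin-binding Z-disc gene Synpo2 (-1.74, limma adjusted p = 0.0327) fell, and no other gene of the thin filament, actin, thick filament, Z-disc or regulator lists was called.

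Troponin genes lie in pairs in the mouse genome, a T gene beside an I gene. In both pairs on chromosome 7 the neighbours differed in level or direction. Tnnt3 and Tnni2 are 54.4 kb apart on chromosome 7, with mean levels of 348 CPM per kb for Tnnt3 and 1.43 for Tnni2 in ETV5 tumours, 420.5 and 1.51 in NPY tumours, and 247.5 and 1.48 in control tumours. Tnnt1 and Tnni3 are 1.92 kb apart on the same chromosome, and Tnni3 was far above its cortex level in the tumours and Tnnt1 was not. Tnnt2 and Tnni1, 25.4 kb apart on chromosome 1, were both low in the tumours.

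The tables held 52 genes within 100 kb of a member, of which 36 were tested in control tumours against cortex, with 15 higher and 12 lower. These counts are near the shares over all genes tested, 35.7% higher and 36.2% lower, so nothing is read from them. H19, an imprinted noncoding RNA, lies 59.5 kb from Tnnt3 and had 932, 4591 and 367 CPM in ETV5 tumours, 7925, 1788 and 5029 in NPY tumours, 252, 4736 and 3170 in control tumours and a mean of 3.63 in cortex (control against cortex 8.55). Its libraries spread widely within each tumour group, more than those of Tnnt3. Lsp1, a leukocyte actin-binding protein gene 3.97 kb from Tnnt3, averaged 49.7 CPM in ETV5 tumours, 40.4 in NPY tumours, 34.2 in control tumours and 5.31 in cortex (2.5). Mrpl23, 16.7 kb from Tnnt3 and between it and H19, was not called in control tumours against cortex (log2 difference 0.34, limma adjusted p = 0.0734).

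Dnaaf3, a gene for assembly of the dynein arms of motile cilia, lies next to Tnni3 on the same strand and shares 86 exonic bases with it, 4.17% of the exons of Tnni3. Dnaaf3 had 21.9, 25.6 and 10.6 CPM in ETV5 tumours, 12.9, 4.75 and 20.1 in NPY tumours, 9.74, 11.6 and 20.1 in control tumours, and 0.940, 0.335 and 1.25 in cortex (control against cortex 3.76). Its spread over the tumours was far narrower than that of Tnni3. Syt5, a synaptotagmin gene near the same pair, fell (-3.67).

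Likeness of pattern was measured over the 9 tumour libraries as Pearson's r of log2(CPM + 1), for the members averaging at least 5 CPM there, which were Tnnt3 and Tnni3, against 12403 other genes. It is a description: the libraries share groups, and with 9 points and many genes the best values are high. The genes most like Tnnt3 were Fam92a (r = 0.96, Spearman's rho = 0.95), BC089491 (r = 0.95, rho = 0.90) and Rhot1, a mitochondrial transport GTPase (r = 0.95, rho = 0.90). Without the 2 libraries farthest from the median of Tnnt3 these r were 0.94, 0.91 and 0.86. The likeness holds among the tumours only. Fam92a had 38.9 to 45.2 CPM in control tumours and 52.0 to 54.4 in cortex, and Rhot1 57.3 to 67.2 and 84.4 to 99.6. BC089491 had 2.97 to 4.47 CPM in control tumours and 1.01 to 1.88 in cortex.

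The genes most like Tnni3 were Tmem255a (r = 0.98, rho = 0.92), Anapc15, a subunit of the anaphase-promoting complex (r = 0.98, rho = 0.93), and Gstm2, a glutathione transferase (r = 0.97, rho = 0.93), with r of 0.97, 0.98 and 0.95 without the 2 farthest libraries. Gstm2 had 334, 22.0 and 2.39 CPM in ETV5 tumours, 29.3, 0.609 and 174 in NPY tumours, and 7.09, 7.71 and 48.5 in control tumours, so the libraries high in Tnni3 were high in it. Smpx, the skeletal muscle marker given above and singled out here after its values were seen, ranked 31 in likeness to Tnni3 (r = 0.94), with 20.3, 1.20 and 0 CPM in ETV5 tumours, 7.29, 0 and 15.7 in NPY tumours, and 0.212, 0.660 and 4.31 in control tumours. Between Tnnt3 and Tnni3 themselves r was 0.47 and rho 0.33.

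**Figure D5:**
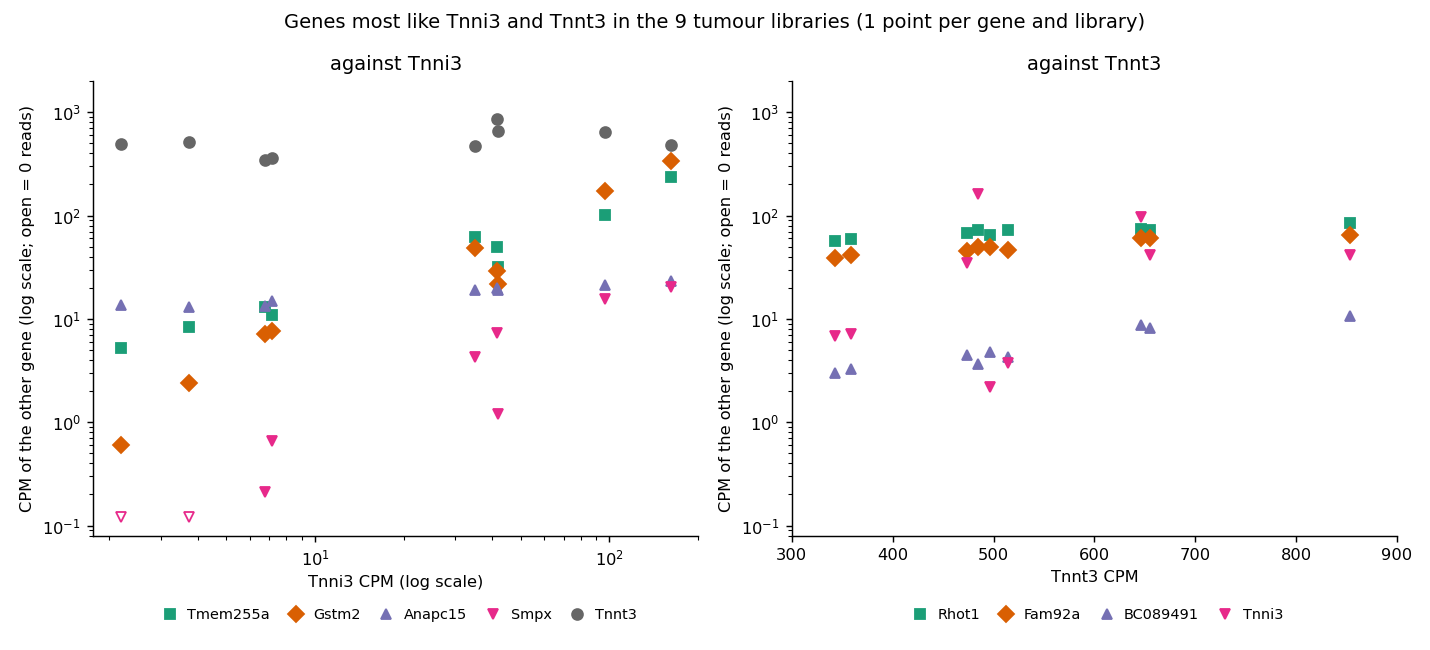
Scatter of levels in CPM over the 9 tumour libraries. Tmem255a, Gstm2, Anapc15, Smpx and Tnnt3 are drawn against Tnni3, both axes log. Rhot1, Fam92a, BC089491 and Tnni3 are drawn on a log axis against Tnnt3 on a linear axis. Symbols mark the gene, open where a library had no read, and the ETV5, NPY and control tumours are not marked apart. Gstm2 runs from 0.609 to 334 CPM along Tnni3 levels of 2.19 to 162 CPM, and Tnnt3 and Tnni3 plotted against each other spread (r = 0.47).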

How the data were processed

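Members and gene lists were chosen with earlier results of these data known. The authors deposited normalized signal in 2 tables of 24421 genes: cortex, control and ETV5 libraries in one, control and NPY libraries in the other. Per the submitters' processing notes, the build was mm10 and the tools included STAR 2.5.0a and DESeq2 1.30.1. Which counting tool and annotation were used is not stated there. Per the labels' protocols, 300 ng of total RNA went into stranded mRNA libraries sequenced as paired ends.

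Deposited values were reads divided by 1 factor per library: division by the step gave whole reads (tolerance 0.01 read) for 100% of values. Control reads were identical in both tables. Symbols turned into dates numbered 27 in each. Positions are from GENCODE M21.

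The test was limma 3.58.1 (trend, robust, in R 4.3.3) on log2 of the deposited value plus 1, two-sided, for the groups compared. Genes tested passed the edgeR 4.0.16 filter, which asks for 15 reads in total and a minimum CPM in 3 libraries. That minimum is the CPM of 10 reads at the median depth of the libraries compared, so a shallower or deeper library needs fewer or more reads. Adjusted p-values are Benjamini-Hochberg over all genes tested, called under 0.05. ETV5 and NPY tumours were compared on reads divided by median-of-ratios size factors of the 9 tumours. Alternatives were edgeR quasi-likelihood with TMM or RLE, DESeq2 1.42.0, a pseudocount of 0.5, no filter, CPM scaling, 1 fit over groups, the replicate block and leaving out each library. The tests were tried on simulated data. Genes named besides the members were those within 100 kb, up to 3 called genes per direction of each list by size of the control against cortex difference, and the 3 genes most like each member averaging 5 CPM. Not each gene or sequence this allows is reported here.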

Additional observations from a re-analysis of the deposited data

How the results depend on the processing

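The call for Tnnt3 in NPY against control tumours passed by DESeq2 alone (log2 difference 0.84, adjusted p = 0.0157), and Acta1 was called there with no filter, so the members called were 1 under each of these settings and 0 otherwise. Genes called in NPY against control tumours were 727 by limma, 1833 by DESeq2, 264 with the replicate block, and 1 to 573 with 1 library left out (125 without NPY replicate 1, and 138, 1 and 78 without control replicates 1, 2 and 3). In ETV5 against control tumours DESeq2 called 76 genes. In ETV5 against NPY tumours DESeq2 called 56, no filter 1, all groups in 1 fit 1, and leaving out 1 library 0 to 1 (1 without NPY replicate 2). The replicate numbers did not pair the samples: same-number libraries correlated at -0.41 to 0.37 after group means were removed, and with the block Tnnt3 had adjusted p = 0.140 in NPY and 0.949 in ETV5 against control tumours. Signs also turned for differences that passed under no setting. Tnni2 in NPY against control tumours was -0.0047 with CPM scaling. With 1 library left out, Tnnt1 in control tumours against cortex was -0.40 to 0.44, below 0 without control replicate 3 or cortex replicate 2 (-0.14). In ETV5 against control tumours Tnni2 was -0.41 to 0.26, above 0 without ETV5 replicate 3 or control replicates 2 (0.10) or 3 (0.07). In NPY against control tumours Tnni2 was -0.30 to 0.32, below 0 without NPY replicate 3 or control replicate 1 (-0.26), and Tnni3 was -0.21 to 2.47, below 0 without NPY replicate 3. In ETV5 against NPY tumours Tnnt1 was -0.52 to 0.60 and Tnni3 -1.15 to 1.90, both below 0 without ETV5 replicate 1 (-0.80 for Tnni3) or NPY replicate 2 (-0.41 for Tnnt1), and Tnni2 was -0.42 to 0.26, above 0 without ETV5 replicate 3 (0.24) or NPY replicate 3. The cause of these changes was not tested. The 22 levels per kb that moved did so because the longest transcript is shorter than all exons. Depth limits Tnnc2 and Actc1, which had 5 reads or fewer per group.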
